A study of Mus musculus with 504 samples.

Results

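P16 is a flow-cytometry gate that held GFP-positive, mCherry-negative mammary tumour cells with a medium level of the epithelial surface protein EpCAM, and it was compared with P18, the gate of mCherry-high, GFP-negative cells with high EpCAM from the same tumours. Its members were the libraries of the tenascin C (Tnc) line labelled P16 or P18 that had passed the authors' quality control, 81 of the 335 passing libraries among 504 wells of the series. They comprised 26 P16 libraries and 55 P18 libraries, each made by Smart-seq2, a full-length RNA-seq protocol, from 5 sorted cells. Counts were summed per animal and gate, giving 4 P16 sums and 5 P18 sums, all from mammary tumours of mice that carried Tnc-CreERT2, the Flp allele MMTV-Flpo, the RC::FrePe reporter and the MMTV-PyMT transgene.

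Both gates carried the same alleles and the same treatment, so no untreated sample entered the comparison. Tamoxifen doses of 2 mg, given 2 times weekly, began in week 9 and went on until collection at week 13 to 14. In these mice the MMTV promoter drives both the PyMT oncogene and the Flp recombinase that turns on mCherry, and the Tnc gene drives a tamoxifen-dependent Cre that switches mCherry to GFP. The switch cannot be undone. GFP therefore marks a cell in which, or in a forebear of which, Cre was once active. It does not necessarily mark one that transcribes Tnc when sorted. The gates differ in colour and in EpCAM at once, so those properties cannot be told apart here. The labels name the source as cell lines, while the growth protocol describes cells sorted directly from tumours. For orientation, P16 was also set beside 3 other gates of these animals: P09, with the same colour and EpCAM labels as P16, P10, GFP with low EpCAM, and P22, GFP and mCherry together with high EpCAM. The series text names P9 as a GFP-positive population but gives no gate under that number, so P09 is described by the labels of its libraries.

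In epithelial-mesenchymal transition (EMT), epithelial cells loosen junctions built from cadherins and claudins and take up a mesenchymal programme with vimentin and matrix proteins. Cells that hold features of both are described as being in partial EMT. Tenascin C, an extracellular matrix glycoprotein, is used in this model as a driver active in such cells, and EpCAM falls as epithelial identity is lost.

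The libraries differed before any gene was compared. Of 46 P16 wells 20 failed quality control, against 5 of 60 P18 wells, and none of the 3 P16 wells of animal TENA2560 passed. Animals TENA2462, TENA2483, TENA2517 and TENA2524 contributed 12, 1, 7 and 6 P16 libraries, so that the P16 value of TENA2483 is a single pool. P16 libraries held 491170 to 10001459 counted reads and P18 libraries 3232190 to 13414012. The median number of genes with at least 1 read was 9647.5, 9302, 8122 and 11398.5 in P16 of these 4 animals, in that order, and 14526, 13699.5, 14505 and 15103 in their P18 pools. P16 was lower in 4 of 4 animals, with a mean P16-minus-P18 difference of -4841 genes (SD of the paired differences 1135, n = 4, two-sided exact sign-flip permutation p = 0.13, the smallest this design allows). After each library was thinned to 1000000 reads, which left out 1 P16 library and no P18 library, the medians were 8599, 7954, 6789 and 9850 against 12248, 11949, 12381 and 12347. The gap was thus present at equal depth. The mitochondrial share of counts was 2.15%, 2.14%, 2.24% and 3.47% in P16 and 2.60%, 2.54%, 2.29% and 2.29% in P18, higher in P16 in TENA2524 and lower in the other animals (mean difference 0.0707 percentage points, exact sign-flip permutation p = 1.0). The part of the lower gene number in the gene values that follow was not tested.

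**Figure D1:**
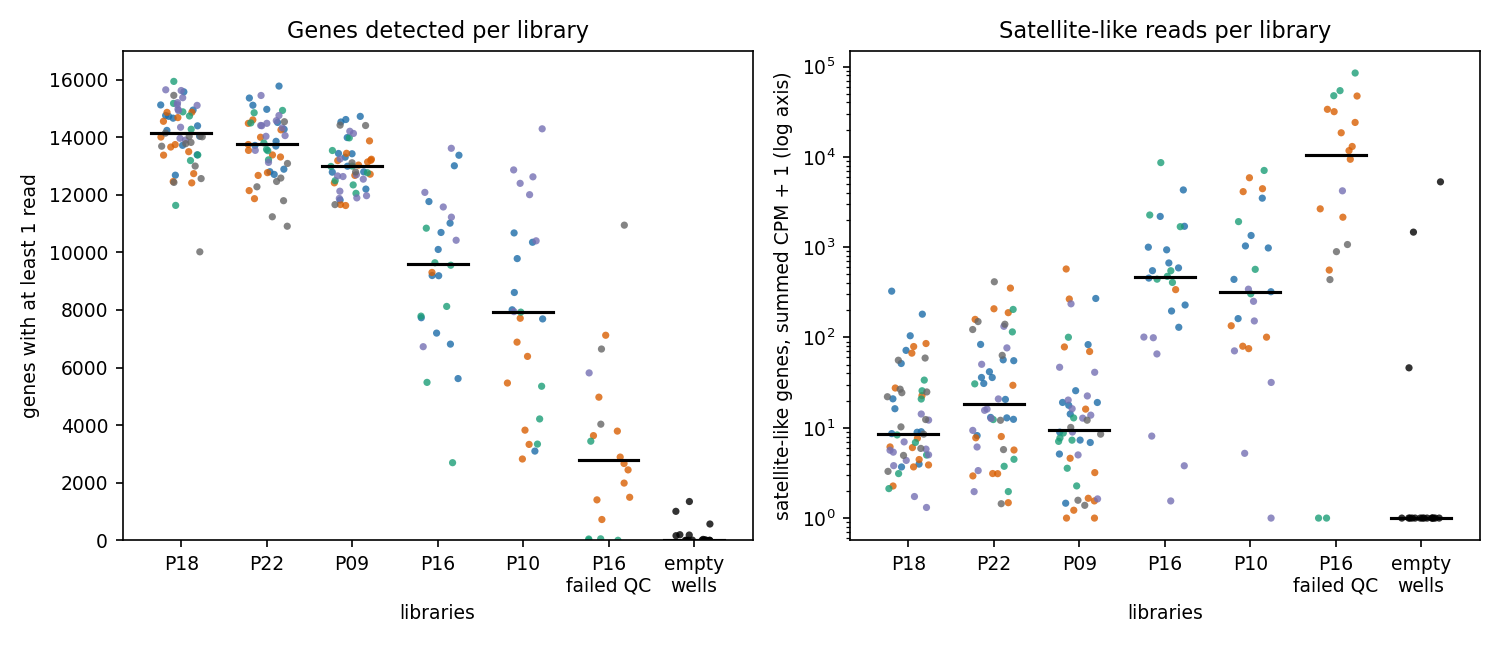
Number of genes with at least 1 read (left, linear axis) and summed CPM (reads per 1000000 counted reads) + 1 of 13 satellite-like genes, described further on (right, log axis), in each library, coloured by animal, for the passing libraries of 5 gates, the P16 libraries that failed quality control (QC) and the empty wells (black); bars are medians. The medians of P16 and P10 sit below those of the other 3 gates on the left and above them on the right, with satellite-like medians of 463.7 CPM in P16 and 7.62 CPM in P18.

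One P16 pool stood apart by its content. Pool R7 of TENA2517 had 2141207 reads over 2696 genes, no read of Epcam, Krt8 or Plet1, and 8627 CPM over the satellite-like genes described further on. Leaving it out changed the direction of none of the 82 genes for which the test against P18 was repeated. Pools R1 and R6 of TENA2524 were set apart by kallikrein genes and are described in the closing observations.

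Apart from R7, P16 pools held epithelial RNA. Epcam reached 10 CPM in 25 of 26 P16 pools and in 55 of 55 P18 pools, as did Krt8, a keratin of simple epithelia, and Plet1, a surface protein of several epithelia. Cdh1, which encodes E-cadherin, reached it in 23 of 26 and 55 of 55. Summed over the 7 epithelial markers (Cdh1, Epcam, Cldn3, Cldn4, Cldn7, Krt8 and Krt18), the animals spanned 4359 to 20060 CPM in P16 and 9378 to 22400 CPM in P18, which overlap. Of 13 leukocyte and macrophage markers, Fcer1g and Mrc1 had no read in any P16 pool, and the sum per animal was 0.0 to 20.4 CPM in P16 and 7.22 to 39.1 CPM in P18. Summed over 3 lymphocyte, 7 fibroblast and pericyte and 3 endothelial markers, no P16 animal exceeded 1.74, 4.25 and 4.84 CPM. The highest P18 sums were 0.302, 7.64 and 1.065 CPM. Ptprc, the pan-leukocyte gene CD45, reached 10 CPM in 0 of 26 P16 pools. At least 1 of the 13 leukocyte and macrophage markers reached 10 CPM in 9 of 26 P16 and 34 of 55 P18 pools, the highest P16 value being 56.5 CPM of Cd68, and Pecam1, an endothelial marker, reached 41.4 CPM in 1 P16 pool. Over the wider list of 23 leukocyte and macrophage genes, some of which epithelium also expresses, the sums were 117.5 to 1008 CPM in P16 and 703.4 to 1532 CPM in P18. The wider list of 17 fibroblast and pericyte genes summed to 20.9 to 75.2 CPM in P16 and 9.34 to 37.9 CPM in P18. For 16 tested lymphocyte genes the sums were 0.362 to 9.575 and 0.0355 to 0.798 CPM. For 12 endothelial genes they were 0.0 to 6.99 and 1.37 to 3.16 CPM. The labelled tumour epithelium was thus present, and the part of other cells in the results was not tested.

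**Figure D2:**
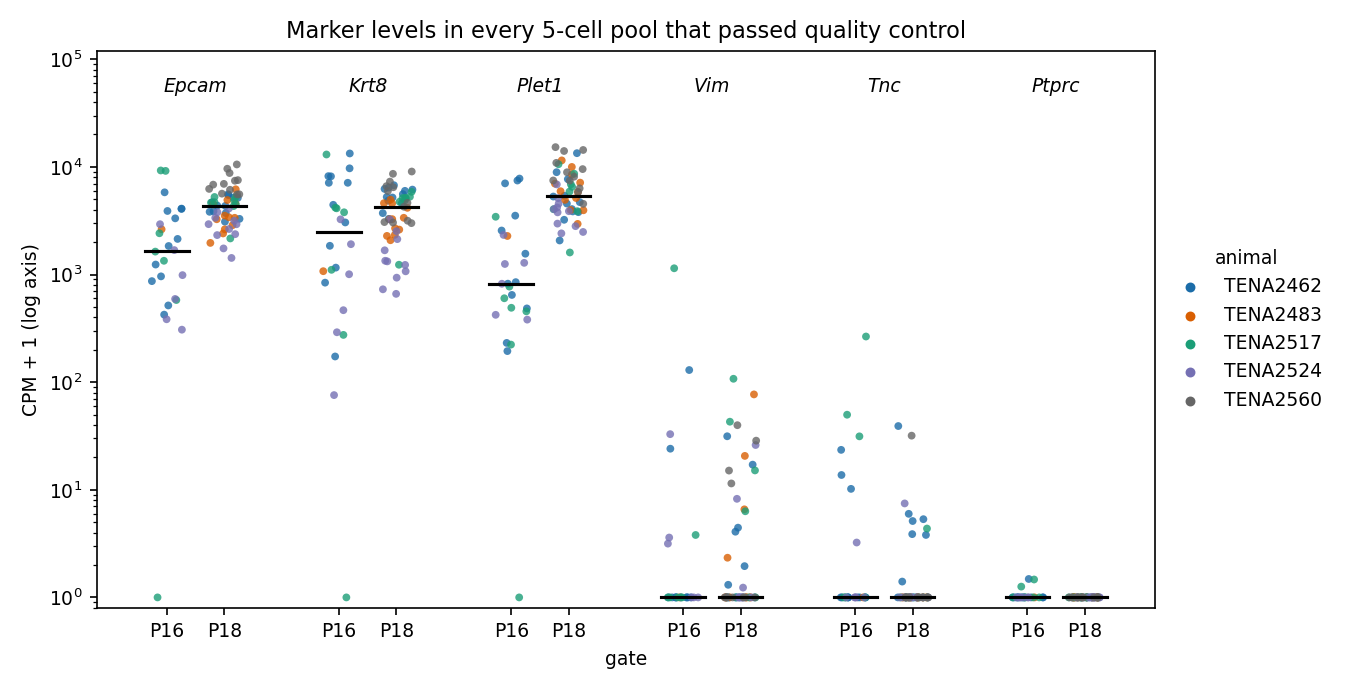
CPM + 1 (log axis) of 6 marker genes in each 5-cell pool of P16 (26 pools) and P18 (55 pools), coloured by animal, with medians as bars. Epcam, Krt8 and Plet1 were read in all P16 pools except R7 of TENA2517, whereas Vim, Tnc and Ptprc were at or near 0 in most pools of both gates.

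Across 33768 genes tested with edgeR's quasi-likelihood test, 1 gene rose in P16 at a Benjamini-Hochberg adjusted p below 0.05 (0.00296% of genes tested) and 0 fell (0.0%). At an unadjusted p below 0.05 there were 2064 genes, 1086 higher and 978 lower, and DESeq2 on the same sums called 1630, 908 higher and 722 lower. The median log2 fold change over all genes tested was -0.21 with edgeR's TMM scaling and 0.07 with RLE scaling, a shift of 0.28, so changes near those sizes depend on the scaling. The median standard error over the 10767 genes with a mean of at least 5 CPM in either gate was 1.23 on the log2 scale. The 24 gene lists described further on held 478 tested genes, of which edgeR called 0, 33 had an unadjusted p below 0.05, and DESeq2 called 18 higher and 16 lower. These counts, and those given list by list, are to be read beside the totals over all 33768 genes. Those were 2064 at an unadjusted p below 0.05, and 908 higher and 722 lower by DESeq2. Called in what follows means called by edgeR unless another tool is named. The replicate is the animal. The p-values rest on a spread estimated jointly from all 43 sums of both lines and all gates, not from P16 and P18 alone.

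The gene that rose was Gm26917 (ENSMUSG00000097971), a long non-coding RNA annotated at chr17:39843013-39846341 (GRCm38), next to Gm42418 in the region of the ribosomal RNA repeat. In P16 its level was 3052, 409.1, 2180 and 1856 CPM in TENA2462, TENA2483, TENA2517 and TENA2524. In P18 it was 152.6, 104.8, 124.2, 65.0 and 297.3 CPM in the same animals and TENA2560. Every P16 value lay above every P18 value, and the lowest P16 value came from the single pool of TENA2483. Per library, Gm26917 had a median of 1669 CPM in passing P16 and 90.1 CPM in passing P18. In libraries that failed quality control the medians were 814.7 CPM in P16 (20 wells) and 4224 CPM in P18 (5 wells). Among 4 empty wells with at least 10000 counts it reached 1512 CPM. The part of library quality in the Gm26917 values was not tested. The log2 fold change was 3.65 ± 0.49 (SE; 4 and 5 animals; edgeR adjusted p = 0.000946), higher in 4 of 4 animals. Without TENA2462, TENA2517 or TENA2524 it was no longer called (adjusted p 0.152, 0.308 and 0.254), with a log2 fold change of 3.40 to 4.08 over all omissions. It also lost the call when P16 and P18 were fitted alone (edgeR adjusted p = 0.732), with failed libraries included (0.275) and with equal library weights (0.0592), at log2 fold changes of 3.92, 3.56 and 3.55. Its neighbour Gm42418, an 18S ribosomal RNA-related gene, took a mean of 166900 CPM in P16 and 122500 CPM in P18 and differed by a log2 fold change of 0.29 ± 0.29, and the transcripts of these neighbours share 0 words of 31 bases.

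A second set of high values in P16 came from gene models made of repeat sequence. Gm10800 and 12 further genes with at least 20 words of 31 bases in common with it, 13 in all, are annotated on chromosomes 2, 9 and 14 and resemble the major satellite, the repeat of pericentromeric heterochromatin in the mouse. The set was chosen after its values were seen. The 3 members with the highest P16 means are shown as windows of their GENCODE M21 transcripts, 5′ to 3′, the capitals marking the 54 bases that all 3 share, since any read inside that stretch cannot be assigned to 1 of them. Gm10800 lies at chr2:98666547-98667301 on the minus strand, Gm10801 at chr2:98662237-98664083 on the plus strand, and Gm21738 at chr14:19415857-19418930 on the minus strand.
Gm10800: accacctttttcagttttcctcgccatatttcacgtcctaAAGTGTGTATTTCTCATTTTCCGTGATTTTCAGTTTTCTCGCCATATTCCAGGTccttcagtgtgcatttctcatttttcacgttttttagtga
Gm10801: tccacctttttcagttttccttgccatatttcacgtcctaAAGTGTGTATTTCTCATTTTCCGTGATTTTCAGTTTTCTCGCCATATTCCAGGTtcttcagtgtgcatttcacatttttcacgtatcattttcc
Gm21738: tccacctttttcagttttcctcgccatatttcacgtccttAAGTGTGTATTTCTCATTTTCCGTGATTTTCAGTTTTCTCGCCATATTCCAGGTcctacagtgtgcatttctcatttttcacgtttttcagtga

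Gm10800 was at 757.6, 137.7, 1225 and 53.5 CPM in P16 of the 4 animals and at 39.6, 19.1, 8.84, 4.14 and 12.4 CPM in P18 of the 5. The P16 and P18 values did not overlap, though TENA2524 was low within P16 and TENA2462 high within P18. Its log2 fold change was 4.83 ± 1.11 (SE), with an edgeR adjusted p of 0.527, so it was not called. The values of Gm10801 (4.88 ± 1.15) and Gm21738 (4.91 ± 1.12) were close to it, as their shared letters allow. All 13 genes were higher in P16 in 4 of 4 animals, with a median log2 fold change of 4.89 and a range of 4.45 to 6.23, and none was called. For 11 of 13 all P16 values lay above all P18 values, as for 0.746% of all genes tested. The 13 were gathered by shared sequence, so they do not count as 13 separate genes. Some were low, such as Gm10721 with a P16 mean of 0.933 CPM. Without the pool R7, Gm10800 stood at 4.49 and Gm10801 at 4.52. When only sums of at least 3 libraries were kept, which drops the single P16 pool of TENA2483, Gm10800 and Gm21738 passed the test, at 5.33 and 5.40 with edgeR adjusted p of 0.0457 and 0.041. Per library the summed level had a median of 463.7 CPM in P16, 319.9 in P10, 8.53 in P09 and 17.4 in P22. The P16 wells that failed quality control had a median of 10550 CPM, and 17 empty wells a median of 0.0 and a maximum of 5283. High values thus stood in the gates with few detected genes, and the part of library quality in them was not tested.

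Gene length went along with the difference as well. The 10767 genes of at least 5 CPM were put in 5 bins of equal number by annotated exon length, and the median log2 fold change rose with each bin, from -0.51 (57 to 1552 bases) through -0.36, -0.22 and -0.06 to 0.23 (7017 bases and longer). With RLE scaling the medians were -0.10, 0.01, 0.14, 0.30 and 0.57, shifted but in the same order. Of the shortest genes 17.2% had all P16 values below all P18 values, against 2.92% of the longest. Among the 10767 binned genes this held for 864, and all P16 values lay above all P18 values for 202. Over all 33768 genes tested the counts were 1509 (4.47%) and 252 (0.746%). Single genes described further on as without overlap are to be read beside these counts. The P16 sum of TENA2483 had a TMM factor of 1.67, against 0.758 to 0.877 in the other P16 sums, which lowers its values. The part of that factor in these counts was not tested. Of the 1509, 219 had no read in any P16 pool. Against P09 the bin medians ran from -0.28 to 0.05, and against P10 from 0.06 to 0.18. Named examples of long genes, chosen after their values were seen, are Srrm2, a scaffold of nuclear splicing speckles, Prrc2a, and Numa1, which organises spindle poles. Srrm2 was at 122.4, 24.9, 246.0 and 93.7 CPM in P16 and 32.6, 22.9, 42.3, 26.7 and 45.8 CPM in P18 (log2 fold change 1.77 ± 0.58, edgeR adjusted p = 0.77), where TENA2483 overlapped P18. Numa1 was at 52.8, 68.8, 61.1 and 43.2 CPM against 18.4, 11.7, 17.1, 22.9 and 17.7 CPM (1.84 ± 0.85, edgeR adjusted p = 0.803), with no overlap, and Prrc2a had 1.61 ± 0.63, also with no overlap.

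**Figure D3:**
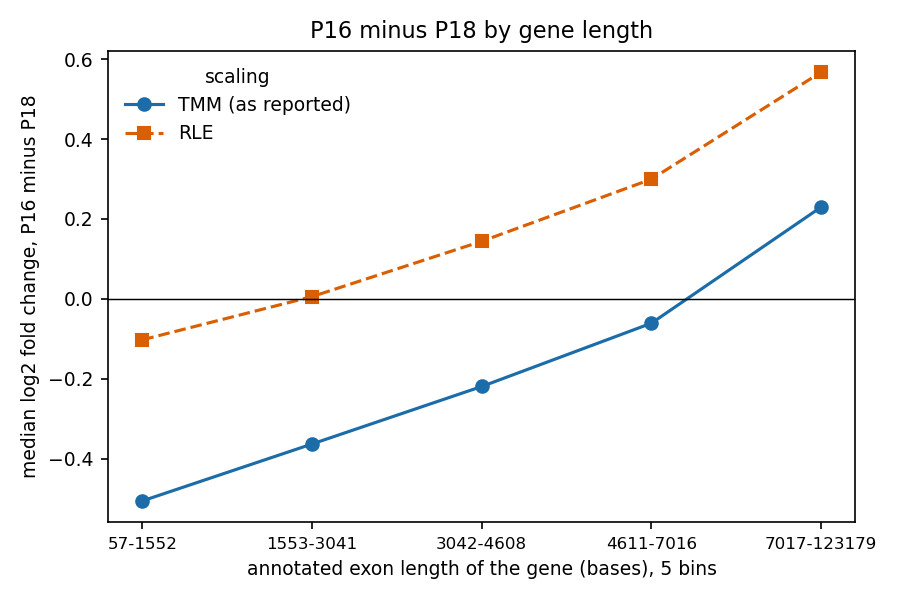
Median log2 fold change of P16 minus P18 (vertical axis) in 5 bins of annotated exon length in bases (horizontal axis), 2150 to 2156 genes each, with TMM scaling (circles) and RLE scaling (squares). The median climbs from -0.51 to 0.23 with TMM and from -0.10 to 0.57 with RLE.

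No gene fell by edgeR's test, so the lower genes are given as values; DESeq2 called 722 lower. The 10 genes of smallest p that were lower in every paired animal were Prpsap2, Gcnt2, Tmem35a, Slc6a14, Nfkbie, Wfdc12, Mup6, Arf4, Ctla2a and Gm21399, and several of them were absent or nearly absent from P16. Prpsap2 (chr11:61729650-61762088), a regulatory partner of the enzyme that makes phosphoribosyl pyrophosphate for nucleotide synthesis, had 0 reads in all 26 P16 pools and 4.46, 7.19, 6.27, 11.0 and 9.55 CPM in the P18 animals. Against a floor of 3 reads over the P16 group it was at least 298-fold lower (edgeR adjusted p = 0.0946). It shares 732 words of 31 bases with the processed copy Gm13651, also at 0 in P16, so the reads of this pair cannot be assigned with certainty. When the fit held the Tnc line only, both were called (edgeR adjusted p 0.0324 and 0.0299). With the libraries that failed quality control included, their log2 fold changes were -0.96 and -0.96 (edgeR adjusted p 1.0), and without 1 animal the adjusted p was 0.523 to 0.889. Slc6a14, an amino acid transporter of secretory epithelia, was at 0.0, 0.0, 0.0 and 0.290 CPM in P16 and 12.9, 79.9, 10.1, 145.9 and 77.9 CPM in P18 (log2 fold change -10.40 ± 2.56, edgeR adjusted p = 0.77).

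Wfdc12, a whey acidic protein-domain protease inhibitor, and Tmem35a, a chaperone of nicotinic receptors, had 0 P16 reads and were at least 560-fold and 222-fold lower by the same floor. Gcnt2, the enzyme of I-branching of glycans, had 1 P16 read and a pooled log2 ratio of -9.62 (95% counting interval -14.92 to -7.14). Ctla2a, a cathepsin inhibitor, also had 1 read (-10.02, -15.33 to -7.54), and the major urinary protein gene Mup6 had 2 (-10.65, -13.70 to -8.80). These intervals cover counting error only, and reads without molecular identifiers are not independent molecules. In P18 these genes reached 10 CPM in a minority of pools. The median P18 pool had 3.98 CPM of Mup6, 0.748 of Gcnt2 and 0.104 of Ctla2a, and 0.0 of Wfdc12 and Tmem35a. Of 55 P18 pools, 10 CPM was reached in 13 for Wfdc12, 8 for Tmem35a, 9 for Gcnt2, 5 for Ctla2a and 18 for Mup6. By animal, Ctla2a was at 20.7, 0.938, 30.4, 0.375 and 0.300 CPM in P18, and Tmem35a at 0.413 to 11.6 CPM. Nfkbie, an inhibitor of NF-kappaB, was at 0.134, 0.0, 0.0 and 0.0 CPM against 9.45, 6.65, 23.1, 13.0 and 14.1 CPM. Arf4, a small GTPase of the secretory pathway, was abundant in both gates, at 207.6, 65.3, 126.9 and 100.9 CPM in P16 and 292.6 to 361.0 CPM in P18, a log2 fold change of -1.44 ± 0.40 (edgeR adjusted p = 0.77). The groups did not overlap for Arf4 and for Gm21399, whose means were 116.7 and 279.0 CPM. P16 pools also had fewer detected genes, and the part of that in these zeros was not tested.

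**Figure D4:**
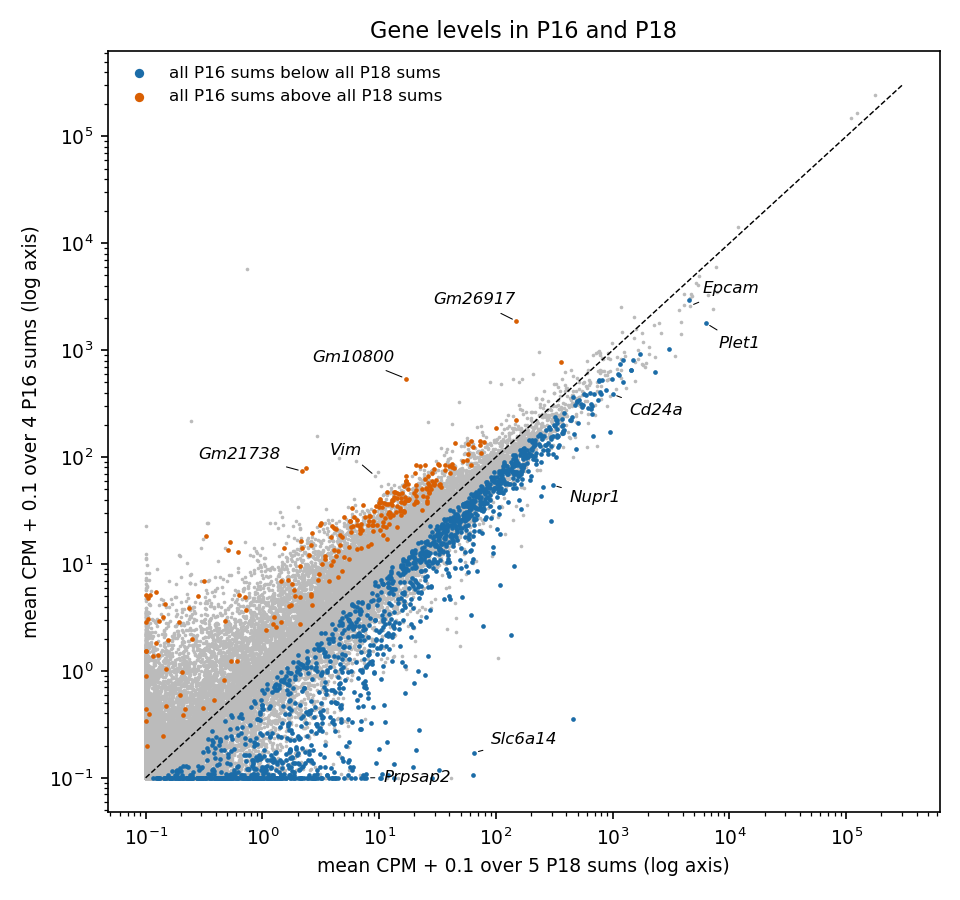
Mean CPM + 0.1 of every tested gene over the 4 P16 sums (vertical, log axis) against the 5 P18 sums (horizontal, log axis), with the dashed line of equality; blue genes have all P16 values below all P18 values (1509) and orange genes the reverse (252). Gm26917 and the satellite-like Gm10800 and Gm21738 stand above the line, and Slc6a14 and Prpsap2 lie at the bottom.

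The abundant epithelial genes Plet1 and Cd24a and the stress-responsive chromatin protein gene Nupr1 were lower in P16 in 4 of 4 animals without overlap, though none was called. Plet1 belonged to the panel of markers, and Cd24a and Nupr1 were chosen after their values were seen. Plet1 (chr9:50494525-50505482) was at 3734, 1365, 904.6 and 1135 CPM in P16 and 5366, 7439, 6151, 4816 and 7806 CPM in P18 (log2 fold change -1.99 ± 0.95, edgeR adjusted p = 0.81). TENA2462 was the highest P16 animal, still below every P18 animal. Cd24a, a glycosylated surface protein used to sort mammary epithelium, was at 446.2, 410.6, 435.8 and 253.6 CPM against 901.9 to 1134 CPM (-1.33 ± 1.01). Nupr1 was at 44.1, 15.7, 125.8 and 32.6 CPM against 225.8 to 415.8 CPM (-2.51 ± 1.09, edgeR adjusted p = 0.781).

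The other gates place these levels in order. Mean Plet1 was 6316 CPM in P18 (SD 1291, n = 5), 4162 in P22 (SD 392.1, n = 5), 3656 in P09 (SD 881.7, n = 5), 1785 in P16 (SD 1313, n = 4) and 1759 in P10 (SD 1527, n = 4), P16 and P10 lying within their spread. Mean Gm26917 ran the other way, 148.8, 396.9, 763.7, 1874 and 1738 CPM in the same order of gates. Against P09, the gate that carries the same labels, 0 genes were called for P16 with edgeR (0.0%), with 1683 at an unadjusted p below 0.05 and 1549 by DESeq2. Against P10 0 genes were called (0.0%), with 1610 at an unadjusted p below 0.05 and 2084 by DESeq2. The smallest edgeR adjusted p values were 0.151 and 0.479. The satellite-like genes had a median log2 fold change of 4.11 against P09 and of -0.60 against P10, and Slc6a14 had -9.09 ± 2.45 and -4.09 ± 2.15. No test of the difference between these contrasts was made.

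**Figure D5:**
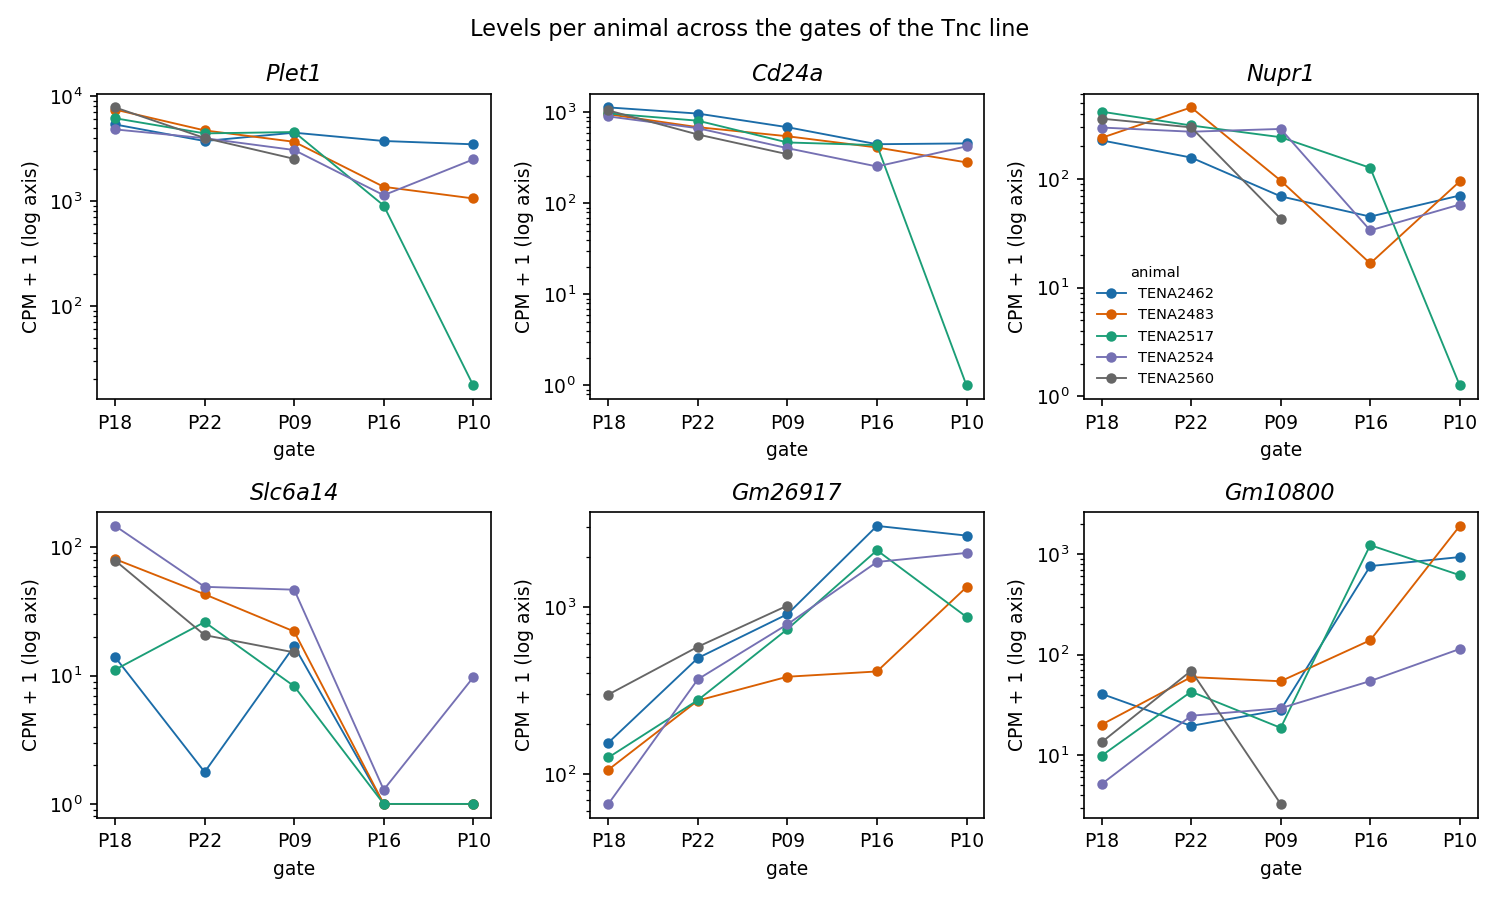
CPM + 1 (log axis) of 6 genes in each animal's sum for the gates P18, P22, P09, P16 and P10 of the Tnc line; lines join sums of 1 animal. Plet1, Cd24a, Nupr1 and Slc6a14 are lower in P16 than in P18 in each of the 4 animals and Gm26917 and Gm10800 are higher.

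The marker that drives the colour switch was read in few P16 pools. Tnc reached 10 CPM in 5 of 26 P16 pools and 2 of 55 P18 pools, against 14 of 50 in P22 and 7 of 48 in P09. By animal it was at 5.19, 0.0, 66.8 and 0.145 CPM in P16 and 4.52, 0.0, 0.320, 0.641 and 2.28 CPM in P18. DESeq2 called Tnc higher (5.42, adjusted p = 0.0496). The groups overlapped, and the log2 fold change of 5.00 ± 2.67 (edgeR adjusted p = 0.831) rested on TENA2517, without which it was -0.71. In pools, fewer cells of a type and less RNA per cell cannot be told apart. Vim, the intermediate filament of mesenchymal cells, reached 10 CPM in 4 of 26 P16 pools and 12 of 55 P18 pools, and was at 28.4, 0.0, 233.6 and 3.62 CPM in P16 against 3.02 to 16.9 CPM in P18 (1.81 ± 1.39). Pool R3 of TENA2517 alone had 1142 CPM of Vim and 264.5 CPM of Tnc, together with 13040 CPM of Krt8 and 9179 CPM of Epcam. Vim and Tnc both reached 10 CPM in 2 of 26 P16 pools, 0 of 55 P18 pools and 13 of 50 P22 pools.

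Several EMT genes had mean levels below 5 CPM in both gates. Mean levels in P16 and P18 were 1.48 and 1.51 CPM for Fn1 (fibronectin), 0.0231 and 0.104 for Cdh2 (N-cadherin), 0.0579 and 0.327 for Zeb1, 0.0395 and 0.0197 for Zeb2 and 0.181 and 0.249 for Snai2, and Twist1 was at 0 in both. The integrin Itga5 was at 0.173 and 0.0766 CPM, podoplanin (Pdpn) at 0.00672 and 0.250 and the basal keratin Krt5 at 1.29 and 1.43. The EMT transcription factor gene Snai1 was at 8.31, 31.0, 0.0 and 16.0 CPM in P16 and 13.8 to 39.1 CPM in P18 (-2.10 ± 1.70). Of 16 EMT transcription factors none was called by edgeR, 7 had a positive and 9 a negative log2 fold change, and the median was -0.77. By DESeq2 1 was called lower, Prrx1. Foxc1 was lower without overlap (-3.46 ± 1.99) and Tcf3, an E-protein, higher without overlap (2.05 ± 1.18). Of 26 partial EMT genes 0 were called by edgeR, with 12 positive, 14 negative and a median of -0.84. With DESeq2 2 were called higher and 1 lower, among Mmp9, Tgfbi and Tnc. Plaur, the urokinase receptor, was at 491.2 CPM in TENA2462 and 25.8 to 40.0 CPM in the other P16 animals, against 104.8 to 333.5 CPM in P18, and Itgb6, the partner of integrin alpha-v, had -2.81 ± 1.68. Thbs1, thrombospondin 1, of the partial EMT list, was at 467.4, 0.0, 1326 and 154.8 CPM in P16 against 74.7 to 152.1 CPM in P18. Of 26 mesenchymal genes 0 were called by edgeR and the median was 0.49. DESeq2 called 2 higher and 2 lower, among Fstl1, Nid1, Prrx1 and Thy1. From this list Lgals1, galectin-1, had -1.15 ± 0.66 and Sparc -2.86 ± 1.80. Nid1, a basement membrane linker of the same list, had 0 reads in P18 and 4.00, 0.0, 18.3 and 0.181 CPM in P16. It reached 10 CPM in 2 of 26 P16 pools. For 27 collagen and matrix genes the median was 1.43, with 0 called by edgeR and 18 positive. DESeq2 called 2 higher, Col15a1 and Col6a1. In this list Col16a1 had 2.24 ± 1.52.

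The epithelial lists held no called member either. Of 30 junction and surface genes 19 were negative and 11 positive, with a median of -0.29 that became 0.06 under RLE scaling. Besides Plet1, Cldn7 and Muc1 were lower without overlap, and Pkp3 and St14 were higher without overlap. Of the 10767 genes of at least 5 CPM, 864 were lower and 202 higher without overlap. Cldn7, a claudin that binds EpCAM, was at 537.0, 385.6, 461.4 and 301.5 CPM in P16 against 609.0 to 1093 CPM in P18 (-1.08 ± 1.10). Epcam itself was at 3207, 1576, 4189 and 1392 CPM against 3421 to 6275 CPM, a log2 fold change of -1.03 ± 1.09. The sort used the EpCAM protein, so the Epcam transcript is not independent of the gates. Cldn3 and Cldn4 had -0.52 ± 0.92 and -1.33 ± 1.47, Ocln, occludin, -1.99 ± 1.86, and Cdh1 -0.19 ± 1.38, which was positive under 5 of the other settings tried (0.06 to 0.41). The simple keratins Krt8 and Krt18 had -0.76 ± 1.27 and -0.93 ± 1.36, and Krt19 1.59 ± 1.81, with 0 of 7 keratins called and a median of -0.30. The epithelial transcription and splicing factors, 18 genes, had a median of 0.02, with Esrp1, a splicing regulator, at 0.06 ± 1.37, Ehf at 0.18 ± 0.71 and Elf3 at -2.67 ± 2.07.

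Csn3 and Wfdc18 were read in most P16 pools and the basal keratin Krt14 in fewer. Csn3, which encodes kappa-casein, reached 10 CPM in 24 of 26 P16 pools and was at 10410, 0.0, 5596 and 7954 CPM against 3251 to 11840 CPM in P18, the 0 being the single pool of TENA2483 (-0.27 ± 1.54). Wfdc18, another whey acidic protein-domain gene, was at 2039, 101.9, 5363 and 2302 CPM against 3193 to 11860 CPM (-1.50 ± 1.06), lower in 4 of 4 animals. Of 16 milk protein genes 0 were called and the median was -0.31. Krt14, a basal keratin, reached 10 CPM in 12 of 26 P16 pools and 32 of 55 P18 pools and was at 165.8, 0.0, 98.0 and 141.3 CPM against 10.3 to 254.4 CPM (0.72 ± 2.03). Of 20 basal and myoepithelial genes 0 were called by edgeR and the median was -0.73, with Tagln, a smooth muscle actin-binding protein, at -5.95 ± 2.67 and Krt16 at -3.05 ± 2.24. By DESeq2 Col17a1 and Jag2 were called higher and Tagln lower. The luminal progenitor and hormone-sensing list had 11 positive and 7 negative members of 18 tested and a median of 0.38. Its members Prom1 and Cd14 had -2.24 ± 1.67 and -1.40 ± 1.21.

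Chemokines and interferon-response genes had the most negative medians of the 24 lists. Of 22 chemokine and cytokine genes 19 were negative and 3 positive, with a median of -2.58, or -2.28 under RLE scaling, and 0 called by edgeR, 4 at an unadjusted p below 0.05. DESeq2 called 5 lower, Ccl7, Csf2, Cxcl5, Il1a and Il6, against 722 lower of all 33768 genes tested. Among the 22, 8 genes had 0 reads in P16, including Ccl7 and Cxcl5. Ccl7 was read mainly in TENA2483 of P18 (59.1 CPM) and Cxcl5 mainly in TENA2524 (33.2 CPM). Cxcl1, a neutrophil chemoattractant, was at 105.4, 0.0, 5.06 and 31.1 CPM in P16 against 60.0 to 325.3 CPM in P18 (-3.19 ± 1.96). Csf3 and Tslp were lower without overlap. Of 30 interferon-response genes 24 were negative and 6 positive, with a median of -1.25, or -0.97 under RLE scaling. Ifi27 was at 131.4, 53.2, 118.1 and 128.5 CPM against 220.3 to 432.2 CPM (-1.34 ± 0.58, edgeR adjusted p = 0.781), with no overlap, and Rtp4 was at 25.4, 0.0, 0.0 and 15.6 CPM against 30.1 to 98.2 CPM (-2.47 ± 1.95), also with no overlap. The median of all genes tested was -0.21. The 17 MHC class I genes had a median of -0.05 that became 0.44 under RLE scaling, with Erap1, a peptide-trimming aminopeptidase, lower without overlap (-2.18 ± 1.26) and Tapbp, tapasin, at -0.62 ± 0.43. In pool R6 of TENA2462 the class II genes Cd74, H2-Aa and H2-Ab1 reached 1434, 387.1 and 644.7 CPM. The same pool had 0 reads of Ptprc, and the highest of 18 other leukocyte markers in it stood at 28.5 CPM. The part of leukocyte RNA in this pool was not tested. No other P16 pool exceeded 5.70 CPM of Cd74. H2-Aa also reached 27.8 CPM in pool R8 of TENA2517 and H2-Ab1 26.1 CPM in pool R3 of TENA2462.

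Signalling and stress genes gave the remaining lists, with 0 called in each by edgeR or DESeq2. The 22 immediate early genes had a median of -0.91 with 16 negative, Ier3 at 1139, 76.8, 394.8 and 171.4 CPM against 967.2 to 1488 CPM (-1.88 ± 0.91) and Junb at -1.02 ± 0.53, while Fos had 0.24 ± 0.99 and Egr1 -1.19 ± 0.91. Of 26 genes of TGF-beta signalling, 17 were negative, the median was -0.68, Id3 was lower without overlap and Eng higher, Ltbp2, a binder of latent TGF-beta, had -3.54 ± 2.12 and the decoy receptor gene Bambi -2.89 ± 1.99. The 16 ErbB receptors and ligands had a median of -0.61, and Hbegf, a ligand of the EGF receptor, was at 841.9, 65.7, 110.4 and 29.1 CPM against 174.9 to 884.9 CPM (-2.08 ± 1.59), with Nrg4 at 1.03 ± 1.44. Among 15 heat shock genes the median was -0.60, Hspa8, the constitutive HSP70, was at 497.7, 297.8, 277.8 and 479.2 CPM against 588.6 to 1155 CPM without overlap (-0.96 ± 0.45), Hspb8 had -4.40 ± 2.51 and Hsph1 was higher without overlap. The 25 hypoxia and glycolysis genes had a median of -0.02 that became 0.33 under RLE scaling, with Bnip3, a mitophagy receptor, lower without overlap (-1.72 ± 1.15) and Car9 at -2.66 ± 2.05. All 13 mitochondrially encoded genes had negative log2 fold changes, with a median of -0.30 that became 0.01 under RLE scaling, mt-Co1 at -0.61 ± 0.42 and mt-Nd1 at -0.38 ± 0.41.

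Mitotic genes reached 10 CPM in a minority of pools. At least 1 of 6 mitotic genes reached 10 CPM in 9 of 26 P16 pools, 9 of 55 P18 pools and 23 of 48 P09 pools. Mki67, which marks cycling cells, was at 19.4, 0.0, 0.232 and 18.9 CPM in P16 and 0.0625 to 3.19 CPM in P18 (2.88 ± 1.99), and Cenpf, a kinetochore protein, had 3.20 ± 2.09, while Top2a, a topoisomerase of dividing cells, had means of 1.83 and 1.28 CPM. The high values came from TENA2462 and TENA2524, and the groups overlapped. Of 38 cell cycle genes 23 were positive and 15 negative, with a median of 0.80 and 0 called with edgeR. With DESeq2 1 was called lower, Aurkb. Pcna, the DNA polymerase clamp, was lower without overlap, at 10 CPM or more in 15 of 26 P16 pools and 54 of 55 P18 pools. Markers of other cell types had medians of -0.28 (23 leukocyte and macrophage genes, 0.38 with unread genes set at their bound), 0.28 (16 tested lymphocyte genes), 1.43 (17 fibroblast and pericyte genes) and -0.10 (12 endothelial genes, 0.07 under RLE scaling), with 0 called in each by edgeR. DESeq2 called 5 higher and 4 lower among the leukocyte genes, 3 and 2 among the lymphocyte genes, and 2 and 0 among the endothelial genes. The leukocyte calls included genes with almost no reads. Ptprc had 4 reads over all P16 pools and 0 over P18, and Fcer1g 0 and 6. A DESeq2 call in these lists is thus no sign by itself of a shift in those cell types. H2-Aa and Cd74, counted in the leukocyte list, had their highest P16 values in TENA2462, which holds pool R6. Col1a1, the main fibroblast collagen chain, had means of 1.05 CPM in P16 and 0.387 CPM in P18, and Fcer1g 0 and 0.0145 CPM. Mcam and Notch3, pericyte genes, had -0.59 ± 1.80 and 0.62 ± 1.92.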

How the data were processed

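The labels give each library's animal, sort gate and the authors' quality call, and samples were grouped by gate and animal. The authors deposited raw read counts per gene (55450 GENCODE M21 identifiers, all matched to names). Per the submitters' processing notes, STAR, SAMtools and featureCounts of Subread were used with mm10; tool versions, settings and strand handling: not given in the sources used here. Counts without molecular identifiers were summed per animal and gate (43 sums over the lines and gates) and fitted together in edgeR 4.0.16 (R 4.3.3): TMM scaling, low-count filter by group, robust quasi-likelihood, animal as a block, Benjamini-Hochberg adjustment over all genes. The unit of levels is CPM, computed here, with TMM factors for sums and without them for single pools. Fold changes are log2 of P16 over P18. P16 depth per animal was 4419175 to 45218227 counted reads and P18 depth 54435055 to 102659082.

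The samples are paired because the labels give the same animals; P16 and P18 deviations from their gate means correlated at 0.232, -0.0103, 0.0889 and 0.139 in TENA2462, TENA2483, TENA2517 and TENA2524. Libraries that failed quality control were left out, and 17 wells were empty. Named genes were those called or, where none was called in a direction, the 10 of smallest p that differed the same way in every paired animal with at least 5 CPM in a gate, a panel of markers, of which 1 is not reported here, and up to 4 genes per list. The members, panel, lists and tests were chosen with earlier results of these data known. The scripts were tested on simulated data. DESeq2 1.42.0, RLE scaling, no filter, no animal block, other sample sets, equal library weights and omission of each animal were tried. Leaving out libraries with Ptprc, pool R7, or pools R1 and R6 of TENA2524, and thinning, were added after the data were seen.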

Additional observations from a re-analysis of the deposited data

Results flagged for a closer look

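A single animal lay far from the others of its gate (Dixon's ratio) for 28 of 164 groups tested; chance marks about 1 in 20. In P16, TENA2462 was high for Plet1 (3734 CPM), Plaur (491.2), Ltbp2 (16.3), Hbegf (841.9), H2-Aa (36.6), Cd74 (136.3) and, at a level near 0, Nfkbie (0.134). TENA2517 was high for Tnc (66.8 CPM), Vim (233.6), Prrc2a (85.2) and Csn1s1 (193.2), and for Gcnt2 and Ctla2a, 1 read each (0.0386). TENA2524 was high for mt-Co1 (6109 CPM), Hspb8 (5.07), Tagln (0.761), Slc6a14 (0.290) and Mup6 (0.0725). TENA2483, a single pool, was low for Ifi27 (53.2 CPM). Its TMM factor of 1.67, against 0.758 to 0.877 in the other P16 sums, lowers its CPM relative to theirs.

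In P18, TENA2462 was high for Krt14 (254.4 CPM) and Tcf3 (5.00), TENA2524 for Mki67 (3.19), Ltbp2 (30.5) and Cxcl5 (33.2), TENA2483 for Ccl7 (59.1) and H2-Aa (0.625), and TENA2517 for Cd74 (7.32), while TENA2560 was low for Snai1 (13.8).

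Outside the comparison, 8 of 20 P16 libraries that failed quality control reached 10 CPM of Epcam and 7 reached it for Krt8, against 1 of 17 empty wells for each.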

How the results depend on the processing

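Gene values were recomputed for 82 named genes under the alternatives, 1390 values in all: 1330 kept direction and side of the threshold, 6 (all Gm26917) lost the call, 30 gained one and 24 turned direction, while 69 genes turned under none. Calls in P16 against P18 numbered 1 (1 higher, 0 lower). DESeq2 gave 1630 (908 higher, 722 lower), 1549 against P09 and 2084 against P10. Without the replicate block, the fit that ignores the pairing by animal, 3 genes were called (2 lower: Prpsap2 and Gm13651), and 2 each against P09 and P10. The Tnc line alone gave 3 (2 lower) and 2 against P09, and no filter 1 against P10 (Top3b). Sums of at least 3 libraries gave 6 (3 higher, 3 lower). P16 and P18 alone, failed libraries included, and equal library weights gave 0 each. Leaving out 1 animal gave 0 to 1, 0 without TENA2462, TENA2517 or TENA2524. The added alternatives (no Ptprc libraries, no R7, no R1 and R6) each gave 1. The mean mitochondrial difference was 0.0707 points with medians, -0.0645 with means over libraries and -0.297 to 0.243 without 1 animal. Directions turned for Tnc (-0.71 to 6.22 without 1 animal), Cdh1 (0.14 RLE, 0.0819 DESeq2, 0.0593 no replicate block, 0.10 at least 3 libraries, -0.43 to 0.41 without 1 animal), Krt8 (0.0935 failed libraries included), Krt14 (-0.0421 P16 and P18 alone, -0.0396 failed included), Esrp1 (-0.22 to 0.35 without 1 animal), Ehf (-0.0401 at least 3 libraries), Csn3 (0.00195 DESeq2, 0.10 at least 3 libraries, -0.94 to 0.15 without 1 animal), Fos (-0.16 to 0.42 without 1 animal), mt-Co1 (0.32) and mt-Nd1 (0.97) with failed libraries, Cd74 (-5.13 P16 and P18 alone, -10.07 to 11.24 without 1 animal), Mcam (0.47 no replicate block, -1.43 to 0.55 without 1 animal) and Notch3 (-0.44 to 1.63 without 1 animal); the cause was not tested. With a median standard error of 1.23, small differences were not detectable.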

Other observations

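Kallikrein genes were read at high levels in 2 of the 26 P16 pools, both from TENA2524. Klk1 (chr7:44225360-44229618), a tissue kallikrein of secretory glands, was at 62500 CPM in pool R1 and 49340 CPM in pool R6. In the other 257 passing pools of the Tnc line it reached at most 166.6 CPM, with 8 pools at 10 CPM or more, and in P18 at most 27.3 CPM. Klk1b5 was at 2491 and 1541 CPM, Klk1b22 at 148.2 and 253.0, Klk1b9 at 88.2 and 76.1 and Klk1b3 at 144.1 and 60.8 CPM. These genes are close paralogs, so reads may be shared among them. Fxyd2, a regulator of the sodium pump, was at 1924 and 518.2 CPM, and Bsnd, barttin, a chloride channel subunit, at 135.5 and 64.0 CPM, against at most 80.8 and 2.48 CPM in the other pools. Epcam stood at 592.1 and 1685 CPM and Plet1 at 819.9 and 2331 CPM in these pools, which thus also held epithelial RNA. Without them 1 gene was still called in P16 against P18.

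Hcar2 and Cldn10, picked after their values were seen, were read in most P18 pools and few P16 pools. Hcar2, the niacin receptor, reached 10 CPM in 1 of 26 P16 pools, 51 of 55 P18 pools, 21 of 48 P09 pools and 2 of 25 P10 pools. Its sums were 0.0, 0.0, 0.0 and 8.19 CPM in P16 against 48.5 to 187.8 CPM in P18. Cldn10, a claudin that forms paracellular channels, reached 10 CPM in 2 of 26 P16 pools and 46 of 55 P18 pools, with sums of 0.376, 23.8, 0.0 and 0.652 CPM against 24.9 to 173.3 CPM. The secretoglobin gene Scgb1b27 varied between P18 animals, from 5.58 to 2144 CPM, and reached 10 CPM in 8 of 55 P18 pools and 0 of 26 P16 pools.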
